A study of Mus musculus with 12 samples.

Results

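The 10 chemokine genes described here were followed through sorted basal and luminal cells of the mouse prostate at 2 ages: Cxcl1, Cxcl2, Cxcl5, Cxcl12, Cxcl14, Cxcl15, Cxcl16, Cxcl17, Ccl20 and Cx3cl1. They were taken by symbol from the 24054 genes listed for each library, and all 10 were found. The mice were C57BL/6, aged 3 months (young) or 24 months (old), with no treatment or engineered allele named in the labels. The 4 groups were young basal, old basal, young luminal and old luminal cells, with 3 libraries each. Every library held the cells of 2 mice of the same age, so libraries differ as pools of animals and not as single animals. The spread between libraries also holds counting error. How the cells were gated is not stated in the sources used here.

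Chemokines are small secreted proteins that draw leukocytes along a gradient by binding receptors with 7 membrane passes. Cxcl1, Cxcl2, Cxcl5 and Cxcl15 belong to the branch that attracts neutrophils. Of these, Cxcl1, Cxcl2 and Cxcl5 act mostly through the receptor Cxcr2 and are typical targets of NF-kB after injury or infection. Cxcl12 and Cxcl14 are made without an inflammatory stimulus in many tissues, Cxcl17 is a product of mucosal epithelia, and Ccl20 attracts cells carrying Ccr6. Cxcl16 and Cx3cl1 differ from the others in that each is made as a membrane protein with a mucin stalk, from which the chemokine part is shed. In the prostate, basal cells line the basement membrane and luminal cells face the duct and make the secretion.

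Of the 10 genes, 7 had reads in all 12 libraries (Cxcl1, Cxcl2, Cxcl12, Cxcl14, Cxcl15, Cxcl16 and Cx3cl1). Cxcl5, Cxcl17 and Ccl20 were seen in part of the libraries, and no gene was under 1 CPM in all 4 groups. CPM are read counts scaled to library size and composition. The libraries held 20012691 to 27663450 counted reads. The reads that PCR copies of 1 fragment give were estimated, from genes seen in few libraries, at 15.7 (old basal replicate 1) to 74 (young basal replicate 1). By that estimate the libraries held 373830 to 1470069 distinct fragments, and the young basal libraries held 373830 to 564923. Marker directions matched the names of the fractions: 10 of 10 basal markers were lower and 10 of 10 luminal markers higher in luminal cells at both ages. Of all tested genes 37.6% were called either way at 3 months and 35.4% at 24 months. The gap varied by marker: at 3 months mean Krt5 was at 2406 CPM in basal and 7.79 CPM in luminal cells, but Krt8 at 2264 and 4020 CPM. Of leukocyte genes, Ptprc, the pan-leukocyte antigen, had reads in 1 library (1.67 CPM), Aif1 had none, and the summed T and NK cell markers reached 1.25 CPM at most. Macrophage markers summed to 12.9 to 24.8 CPM in young basal and 26.4 to 44.8 CPM in old basal libraries, and to 25.6 to 37.3 and 25.9 to 46.6 CPM in young and old luminal ones. Most of these sums came from Cd14 and Cd68, which had reads in all 12 libraries (26.5 and 26.7 CPM at most). In luminal cells Itgam was at 0.969 to 2.37 CPM at 3 and 2.42 to 8.35 CPM at 24 months, and Lyz2 at 0 to 1.75 and 4.01 to 5.24 CPM. Of the 5 macrophage markers tested none was called with age in either cell type by edgeR or DESeq2, and none had an unadjusted p under 0.05. The part of such cells in the chemokine values was not tested.

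Cxcl5, Cxcl15, Cxcl1 and Cxcl2 lie in a row on chromosome 5 in GRCm38, the build of the deposited tables (mm10): Cxcl5 (chr5:90759360-90761624), Cxcl15 (chr5:90794534-90803067), Cxcl1 (chr5:90891241-90893115) and Cxcl2 (chr5:90903871-90905938), all on the plus strand. Cxcl1 ends 10755 bases before Cxcl2 begins, and 88173 bases separate Cxcl15 from Cxcl1. Ccl20 lies at chr1:83116766-83119167, Cxcl12 at chr6:117168535-117181367 and Cx3cl1 at chr8:94772009-94782427, each on the plus strand. Cxcl17 (chr7:25400053-25412886), Cxcl16 (chr11:70453983-70459984) and Cxcl14 (chr13:56288643-56296551) are on the minus strand. All 10 are annotated as protein-coding.

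The stretches just upstream of the chromosome 5 neighbours and of Ccl20 are shown because these genes differed in level and pattern while sharing a position or a class of motif. The sequences are those of RefSeq for GRCm38.p6, which held promoters of 7 of the 10 genes. They run from 120 to 31 bases before the start site on the plus strand, with each match to the kappa-B-like motif searched, read on either strand, in capitals. The windows are chr5:90794414-90794503 (Cxcl15), chr5:90891125-90891214 (Cxcl1), chr5:90903779-90903868 (Cxcl2) and chr1:83116646-83116735 (Ccl20).
Cxcl15: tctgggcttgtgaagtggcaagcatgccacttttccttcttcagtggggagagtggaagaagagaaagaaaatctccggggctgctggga
Cxcl1: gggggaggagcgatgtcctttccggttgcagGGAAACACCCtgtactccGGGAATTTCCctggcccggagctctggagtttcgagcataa
Cxcl2: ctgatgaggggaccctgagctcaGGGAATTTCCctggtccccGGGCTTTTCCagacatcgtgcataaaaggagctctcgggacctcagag
Ccl20: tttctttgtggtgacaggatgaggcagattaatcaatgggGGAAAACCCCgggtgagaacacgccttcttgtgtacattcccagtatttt
In the 250 bases before the start site, Cxcl1 and Cxcl2 each had 2 matches, which do not overlap, and Ccl20 had 1. Cxcl15, Cxcl12, Cxcl14 and Cx3cl1 had no match. Over all promoters of that length, 1.41% held the motif (464 of 32851). A match is a description of the letters and not a bound site.

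Levels per transcript length (TPM) put Cxcl16 first in basal cells. In young basal libraries Cxcl16 was at 190.93 to 301.79 TPM, above Cx3cl1 (90.65 to 153.1) without overlap. Cx3cl1, Cxcl1, Cxcl12 and Cxcl14 followed with mean levels of 117.5, 91.8, 74.4 and 71.8 TPM, and the ranges of these neighbours overlapped. Cxcl2 (20.3 TPM) and Cxcl15 (5.07 TPM) came last among the genes seen, and Cxcl5, Cxcl17 and Ccl20 were at 0. In old basal cells the mean order was Cxcl16 (209.7 TPM), Cxcl1 (111.1), Cx3cl1 (91.2), Cxcl2 (50.2), Cxcl12 (36.2), Cxcl14 (26.3), Cxcl15 (4.42) and Cxcl17 (3.44). There Cxcl1 and Cx3cl1 overlapped, as did Cxcl2 with Cxcl12, Cxcl12 with Cxcl14, and Cxcl15 with Cxcl17.

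Young luminal cells had Cxcl16 first again (67.9 TPM), then Cxcl17 (41.1), Cx3cl1 (29.2) and Cxcl1 (23), and none of these 4 overlapped its neighbour. In old luminal cells Cxcl17 stood first in each library, at 141.41 to 234.06 TPM, above Cxcl16 at 71.01 to 108.46 TPM. Cx3cl1, Cxcl2, Cxcl1 and Cxcl15 followed with overlapping ranges (means of 47.7, 37.2, 30.6 and 21 TPM), and Cxcl14, Ccl20, Cxcl5 and Cxcl12 were at 3.44 TPM or less on average. The summed level of the 10 genes in basal libraries was 576 to 687 TPM at 3 and 461.5 to 576 TPM at 24 months. In luminal libraries it was 187 to 212 TPM at 3 and 336.7 to 499 TPM at 24 months. The membrane-anchored pair, Cxcl16 and Cx3cl1, made up 46.6% to 51.2% of that sum in young luminal and 29.5% to 39.1% in old luminal libraries. Cxcl17 made up 15.4% to 27.9% and 42% to 46.9% of it. TPM shares within a library depend on the other genes in the sum, so these figures describe the make-up and not a change of each gene.

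**Figure D1:**
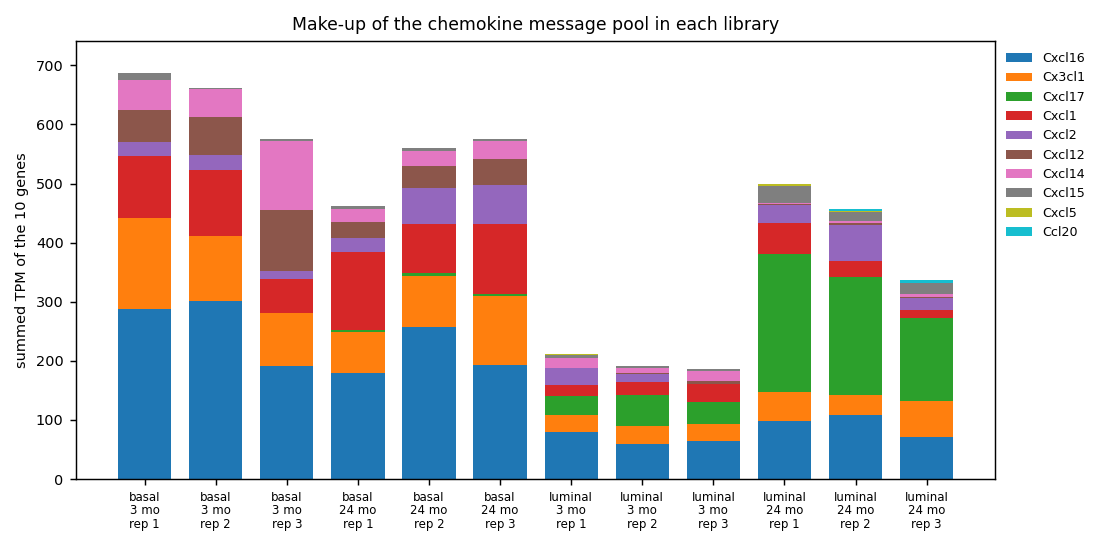
Stacked bars give the summed TPM of the 10 chemokine genes in each of the 12 libraries, with 1 colour per gene. Cxcl16 is the largest block in all basal and young luminal libraries, and Cxcl17 is the largest in the 3 old luminal libraries (42% to 46.9%).

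The comparison of luminal with basal cells asks which chemokines each layer carries. Of the 9 genes that passed the filter on low counts, 5 were lower and 1 higher in luminal cells at 3 months, and 5 were lower and 2 higher at 24 months (edgeR quasi-likelihood test, adjusted p under 0.05). Over all 14201 tested genes 37.6% were called at 3 months (19% higher, 18.6% lower) and 35.4% at 24 months (15.7% higher, 19.7% lower). At 3 months 1 of the genes had luminal libraries entirely above and 5 entirely below the basal ones, against 28.5% and 23.1% of all tested genes (51.6% either way). At 24 months these numbers were 3 and 5, against 25.2% and 27.9% (53.1% either way). Ccl20 did not pass the filter, and Cxcl5 passed through luminal libraries alone. The median log2 fold change was -1.45 over the 9 genes against 0.19 over all genes at 3 months, and -0.74 against 0.00 at 24 months.

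The neutrophil attractants did not share 1 pattern. Cxcl1 was basal: young basal libraries had 23.1, 45.2 and 48.1 CPM and young luminal libraries 11.1, 12.6 and 17.1 CPM. Old basal libraries had 39.3, 55.5 and 65.8 CPM and old luminal libraries 6.97, 16.5 and 26.9 CPM. The luminal libraries lay below all basal libraries at each age. Cxcl1 was 2.86-fold lower in luminal cells at 3 months (log2 -1.51 ± 0.43 SE, edgeR adjusted p = 0.0115) and 3.18-fold lower at 24 months (log2 -1.67 ± 0.43, edgeR adjusted p = 0.00657).

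Cxcl2, its neighbour on chromosome 5, varied widely between libraries of a group. Young basal libraries had 6.28, 11.4 and 12.3 CPM, old basal 13.6, 33.4 and 36.2 CPM, young luminal 0.687, 9.16 and 19 CPM, and old luminal 12.5, 18.2 and 44.5 CPM. The lowest of these, young luminal replicate 3, rested on about 0.516 of a fragment. Basal and luminal ranges overlapped at both ages, and the log2 difference was -0.06 ± 0.79 SE at 3 months and -0.15 ± 0.78 at 24 months (edgeR adjusted p = 0.971 and 0.917). The SE was larger than the difference at both ages.

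Cxcl15, also called lungkine for its abundance in lung epithelium, was low in basal cells at both ages and in young luminal cells. Young basal libraries had 0.977, 3.44 and 11.2 CPM, old basal 3.84, 4.62 and 6.93 CPM, and young luminal 4.6, 6.7 and 7.55 CPM. The young basal values stood for 0.568 to 4.24 fragments per library. Old luminal libraries had 22.5, 24.9 and 36.3 CPM, above every other library. At 24 months Cxcl15 was 5.43-fold higher in luminal cells (log2 2.44 ± 0.71 SE, edgeR adjusted p = 0.0144), whereas at 3 months the difference was 0.27 ± 0.68 (edgeR adjusted p = 0.805). The 24-month call was lost without old basal replicate 1 (edgeR adjusted p = 0.0541), old basal replicate 3 (0.0584) or old luminal replicate 1 (0.057).

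Cxcl5 had no read in any of the 6 basal libraries. It had 1.56 CPM in young luminal replicate 1, none in the other young luminal libraries, and 1.46, 1.72 and 3.21 CPM in old luminal libraries. These values stand for 1.05 to 1.84 fragments per library with reads. At 24 months the level was at least 2.1-fold that of a basal group holding 3 fragments, and the difference did not pass the test (edgeR adjusted p = 0.0799). With DESeq2 Cxcl5 was called at 24 months (adjusted p = 0.0412), as it was by limma on log2(TPM + 1) (0.00367) and by edgeR on the compared groups alone (0.0203). Cxcl5 passed the filter on low counts through luminal libraries alone and rests on few fragments, so these calls lend the difference no support.

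Cxcl12, the ligand of Cxcr4 and of the scavenger receptor Ackr3, had the widest gap among the genes seen in every library. Young basal libraries had 55, 68.5 and 95.3 CPM, and old basal libraries 33.3, 40.5 and 47.2 CPM. Young luminal libraries had 0.906, 2.76 and 5.28 CPM and old luminal libraries 1.43, 1.65 and 5.07 CPM, which is 0.783 to 3.97 fragments. Cxcl12 was 24.3-fold lower in young luminal cells (log2 -4.60 ± 0.61 SE, edgeR adjusted p = 2.37e-05) and 14.8-fold lower in old luminal cells (log2 -3.89 ± 0.59, edgeR adjusted p = 9.78e-05). The luminal side rests on few fragments: the log2 value was -5.39 at 3 months without young luminal replicate 3 and -4.69 at 24 months without old luminal replicate 2, and both calls held. Fibroblasts and endothelial cells also make Cxcl12, and the summed levels of their markers were higher in basal libraries. Summed fibroblast markers were at 2128 to 2496 CPM in young basal and 524 to 840 CPM in young luminal libraries, and at 1994 to 2236 and 419 to 562 CPM in the old groups. Of these 12 genes 2 were called lower in luminal cells at each age, Dcn and Gsn, none had 0 in all libraries, and at 24 months Lum was called higher. Dcn and Gsn made up most of the fibroblast sum. The median log2 difference of the 12 genes was 0.30 at 3 months and -0.38 at 24 months, and Col1a1 (0.46) and Col3a1 (0.26) were not lower in luminal cells at 3 months. Summed endothelial markers were at 31.5 to 79.1 CPM in young basal and 1.71 to 5.23 CPM in young luminal libraries, and at 42.1 to 59.1 and 5.42 to 10.2 CPM in the old groups, with 3 of 9 called lower in luminal cells at each age. In young luminal cells the endothelial genes Pecam1, Tek, Tie1 and Cldn5 were at 0. The part of such cells in the Cxcl12 difference was not tested.

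Cxcl14, a chemokine of skin and other epithelia, was also basal. Young basal libraries had 41.5, 45.4 and 97.2 CPM and young luminal libraries 10.3, 20.7 and 21.4 CPM. Old basal libraries had 22.8, 24.4 and 30.7 CPM and old luminal libraries 1.15, 4.4 and 6.41 CPM. The old luminal values stood for 0.659 to 4.86 fragments per library. Cxcl14 was 3.5-fold lower in luminal cells at 3 months (log2 -1.81 ± 0.51 SE, edgeR adjusted p = 0.0116) and 6.52-fold lower at 24 months (log2 -2.70 ± 0.54, edgeR adjusted p = 0.000989). The 3-month call was lost without young basal replicate 3 (edgeR adjusted p = 0.0718) or young luminal replicate 2 (0.0529). The fibroblast and endothelial values given for Cxcl12, with their mixed directions among fibroblast genes, stand beside this result too, and their part was not tested.

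The membrane-anchored pair was abundant in basal cells and lower, but well measured, in luminal cells. Cxcl16, which binds Cxcr6 and oxidized lipoprotein, had 216, 347 and 363 CPM in young basal and 99.1, 107 and 132 CPM in young luminal libraries. In the old groups it had 251, 257 and 339 CPM in basal and 106, 141 and 192 CPM in luminal libraries. Luminal libraries lay below all basal libraries at each age. Cxcl16 was 2.74-fold lower in luminal cells at 3 months (log2 -1.45 ± 0.23 SE, edgeR adjusted p = 0.000137) and 1.93-fold lower at 24 months (log2 -0.95 ± 0.23, edgeR adjusted p = 0.00419).

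Cx3cl1, fractalkine, the ligand of Cx3cr1, had 133, 170.2 and 239 CPM in young basal libraries and 62.1, 62.8 and 64.2 CPM in young luminal libraries. In the old groups it had 128, 150.2 and 199.9 CPM in basal and 76.1, 92.2 and 118 CPM in luminal libraries. It was 2.87-fold lower in luminal cells at 3 months (log2 -1.52 ± 0.22 SE, edgeR adjusted p = 6.49e-05) and 1.67-fold lower at 24 months (log2 -0.74 ± 0.22, edgeR adjusted p = 0.0153). The 24-month call was lost without old basal replicate 3 (edgeR adjusted p = 0.0888) or old luminal replicate 2 (0.0821). Endothelial cells make Cx3cl1 as well, and the endothelial sums given for Cxcl12 moved in the same direction, with their part not tested.

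Cxcl17 was the reverse of these genes. Young basal libraries had no read, old basal libraries had 0.707, 1.43 and 1.66 CPM, and luminal libraries had 15.1, 16.9 and 24.1 CPM at 3 months and 58, 92.6 and 97.5 CPM at 24 months. Luminal libraries were above all basal libraries at each age. At 3 months Cxcl17 was at least 8.23-fold higher in luminal cells, against a young basal group holding 3 fragments (2.27 CPM; edgeR adjusted p = 7.32e-08). At 24 months it was 64.9-fold higher (log2 6.02 ± 0.45 SE, edgeR adjusted p = 3.99e-07), measured against a basal group of about 4.05 fragments in all. Ccl20 was at 0 in all libraries but old luminal replicates 2 and 3 (1.59 and 1.84 CPM, or 0.974 and 1.39 fragments), and was not tested.

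**Figure D2:**
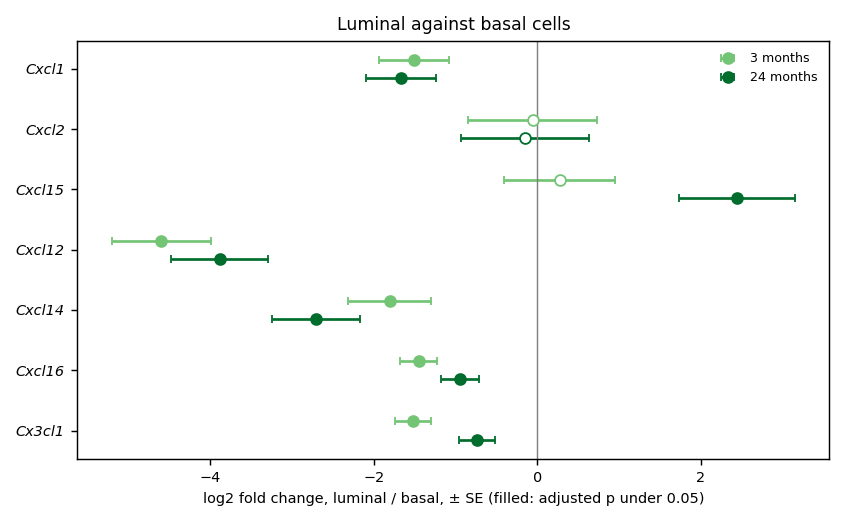
Points give the log2 fold change of luminal against basal cells for the 7 genes seen in every library, at 3 months (light) and 24 months (dark), with bars of 1 SE and filled points where the edgeR adjusted p was under 0.05. Cxcl1, Cxcl12, Cxcl14, Cxcl16 and Cx3cl1 are left of 0 and filled at both ages, Cxcl2 lies at 0, and Cxcl15 is filled and right of 0 at 24 months.

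The comparison of ages asks how the chemokines of each layer differ between 3 and 24 months. In luminal cells 1 of the 9 tested genes, Cxcl17, was called, and it rose, while 1.65% of all tested genes were called (1.26% higher, 0.394% lower). Cxcl17 went from 18.7 ± 4.8 to 82.7 ± 21.5 CPM (mean ± SD, n = 3), or from 12.7 to 20.8 fragments per library to 43.9 to 59.6. Every old luminal library lay above every young one. The rise was 4.42-fold (log2 2.15 ± 0.37 SE, edgeR adjusted p = 0.0111). Its size changed little without any 1 library (log2 2.01 to 2.37), but the call was lost without young luminal replicate 1 (edgeR adjusted p = 0.055), young luminal replicate 3 (0.0501), old luminal replicate 1 (0.0655) or old luminal replicate 2 (0.061). On fragment counts, which are reads divided by a library's estimated copies per fragment, the log2 change was 2.12 (edgeR adjusted p = 3.8e-06).

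A list of 8 genes known from the proximal part of the prostate ducts was set beside Cxcl17. It was chosen after the data were seen, and its values are a description. Of the 8, 7 had all old luminal libraries above all young ones (8.71% of all tested genes did), and 4 were called higher (1.26% of all): Krt7 (log2 1.63), Ly6a (1.18), Cd44 (1.03) and Wfdc2 (2.76). Psca (log2 1.85, edgeR adjusted p = 0.376), Krt4 (1.75, 0.341) and Clu (0.22, 0.897) were not called, and Prom1 overlapped (0.20, 0.897). None of the 8 was called higher with age in basal cells by edgeR, where Prom1 fell. At 3 months edgeR called 2 of the 8 lower in luminal than in basal cells, Krt7 (log2 -0.98) and Cd44 (-2.61), and 3 higher. Basal markers summed to 648 to 751 CPM in young and 870 to 1360 CPM in old luminal libraries, with 2 of 10 called higher with age. Genes of the seminal vesicle secretion were abundant in luminal libraries, at a sum of 149500 to 173800 CPM at 3 and 132900 to 215700 CPM at 24 months. Of these 8 genes 2 were called higher with age, Svs1 and Ceacam10, against 1.26% of all tested genes. Both varied widely between old luminal libraries, at 43.6 to 7183 CPM (Svs1) and 143 to 3661 CPM (Ceacam10). The part of any of these lists in the Cxcl17 change was not tested. In bulk samples, more cells of a kind and more RNA per cell cannot be told apart.

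Cxcl15 was higher in old luminal cells by 4.44-fold, from 6.28 ± 1.52 to 27.9 ± 7.37 CPM, with no overlap of the libraries. That difference did not pass the test over all genes (log2 2.15 ± 0.71 SE, edgeR adjusted p = 0.196). It was called by DESeq2 (adjusted p = 0.0175), by edgeR on luminal libraries alone (0.00742) and by edgeR on fragment counts (0.0018). Cx3cl1 also had all old luminal libraries above the young ones, from 63 ± 1.1 to 95.3 ± 21 CPM (log2 0.60 ± 0.22, edgeR adjusted p = 0.276). Cxcl14 went the other way, from 17.5 ± 6.23 to 3.99 ± 2.65 CPM without overlap (log2 -2.14 ± 0.53, edgeR adjusted p = 0.0624). It was called as lower by DESeq2 (adjusted p = 0.000244), by edgeR with no filter on low counts (0.0207), on fragment counts (0.0332), and without old luminal replicate 3 (0.0305). The old luminal level of Cxcl14 rested on 0.659 to 4.86 fragments per library. In all, 3 of the 10 genes had old luminal libraries entirely above and 1 entirely below the young ones, against 8.71% and 9.6% of all tested genes (18.3% either way).

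Cxcl1 (log2 0.31 ± 0.42 SE), Cxcl2 (1.38 ± 0.80), Cxcl16 (0.38 ± 0.23) and Cxcl12 (-0.14 ± 0.55) had overlapping luminal libraries at the 2 ages and edgeR adjusted p of 0.589 to 1. Cxcl5 held 1.35 fragments in 1 young luminal library and 1.05 to 1.84 in each old luminal library, and Ccl20 was seen in old luminal libraries alone. At that depth no difference with age was detectable for either.

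**Figure D3:**
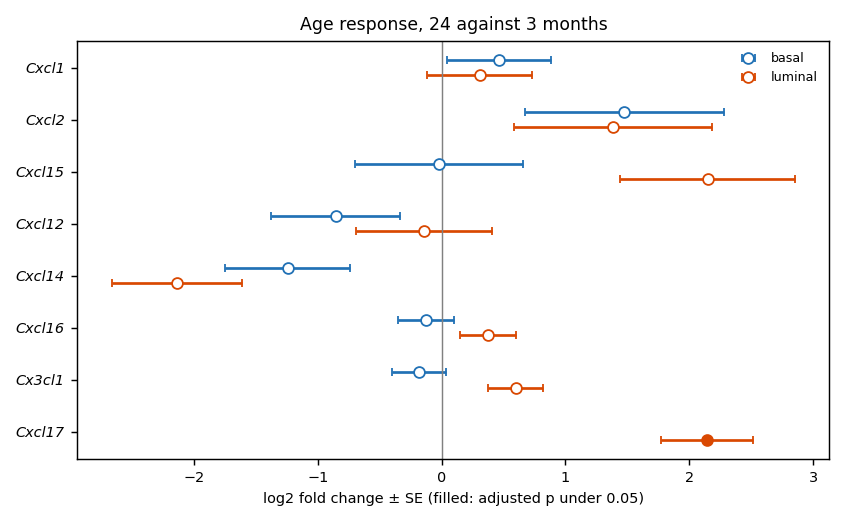
Points give the log2 fold change from 3 to 24 months in basal (blue) and luminal cells (orange), with bars of 1 SE and filled points where the edgeR adjusted p was under 0.05. Cxcl17 in luminal cells (2.15) is the single filled point, Cxcl15 lies at 2.15 in luminal cells and at -0.02 in basal cells, and Cxcl14 is left of 0 in both; basal Cxcl17, with no young reads, is not drawn.

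In basal cells the single call was again Cxcl17, which was called higher (edgeR adjusted p = 0.00128), while 1.24% of all tested genes were called (1.01% higher, 0.225% lower). Of the genes called in basal cells 144 were higher and 32 lower, or 85 and 53 with DESeq2 size factors. The basal level of Cxcl17 stayed near the limit of detection: no read in the young libraries and 0.955, 0.933 and 2.16 fragments in the old ones. The old mean of 1.27 CPM was below the 2.27 CPM that 3 fragments would give in the young group, so no fold is given. The call was lost on fragment counts (edgeR adjusted p = 0.465) and when basal libraries were fitted alone (0.309). Old basal libraries held 677884 to 1470069 distinct fragments and young ones 373830 to 564923, and the part of this depth gap in the call was not tested.

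Cxcl14 and Cxcl12 had all 3 old basal libraries below all 3 young ones. Cxcl14 went from 61.4 ± 31.1 to 25.9 ± 4.2 CPM (mean ± SD, n = 3; log2 -1.24 ± 0.50 SE, edgeR adjusted p = 0.277), and Cxcl12 from 72.9 ± 20.5 to 40.3 ± 6.97 CPM (log2 -0.85 ± 0.52, edgeR adjusted p = 0.487). Neither passed the main test; on fragment counts both were called lower (edgeR adjusted p = 0.0144 and 0.0267). Young basal replicate 3 was the highest library for both genes (97.2 and 95.3 CPM). Smooth muscle markers summed to 237 to 272 CPM in young and 51.6 to 128 CPM in old basal libraries, with 0 of 8 called by edgeR, 2 at an unadjusted p under 0.05 and 2 called by DESeq2 (Myh11 and Tagln). The fibroblast sums, mostly Dcn and Gsn, overlapped between the ages in basal cells, but the median log2 change of the 12 markers was -1.10 in basal and -1.36 in luminal cells. Col1a1 was called lower in basal (-2.95, edgeR adjusted p = 0.0372) and luminal cells (-3.27, 0.0183). Col1a2 was at -2.19 and -2.77 and Col3a1 at -1.70 and -2.35, without passing edgeR's test. DESeq2 also called Lum in basal and Col3a1 in luminal cells. In luminal cells smooth muscle markers summed to 70 to 123 CPM at 3 and 12.4 to 70.3 CPM at 24 months, with 2 of 8 called lower. The part of stromal cells in the values of Cxcl12 and Cxcl14 was not tested.

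Cxcl2 was the other gene with no overlap in basal cells, with all old libraries above the young ones, from 9.99 ± 3.24 to 27.8 ± 12.3 CPM (log2 1.47 ± 0.80 SE, edgeR adjusted p = 0.423). Cxcl1 overlapped, at 38.8 ± 13.7 and 53.5 ± 13.4 CPM (log2 0.46 ± 0.42, edgeR adjusted p = 0.717). Immediate-early genes, which rise when tissue is dissociated as well as in injury, summed to 14370 to 15230 CPM in young and 17870 to 20990 CPM in old basal libraries. Of these 20 genes 5 were called higher with age in basal cells and 7 in luminal cells, against 1.01% and 1.26% of all tested genes. The part of these immediate-early genes in the Cxcl1 and Cxcl2 values was not tested. Cxcl16 (log2 -0.13 ± 0.23), Cx3cl1 (-0.18 ± 0.22) and Cxcl15 (-0.02 ± 0.68) overlapped, with edgeR adjusted p of 0.823 to 1. In all, 2 of the 10 genes had old basal libraries entirely above and 2 entirely below the young ones, against 13.4% and 5.67% of all tested genes (19% either way).

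**Figure D4:**
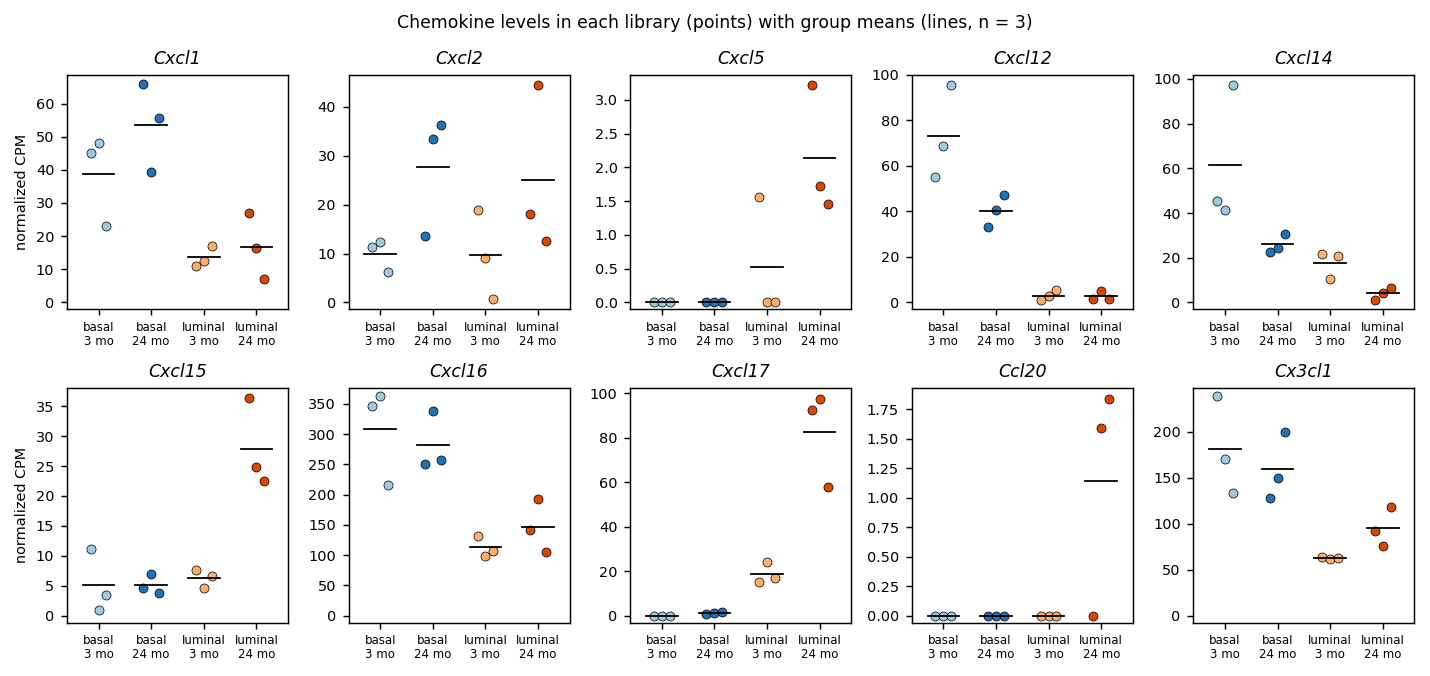
Each panel shows 1 chemokine gene, with normalized CPM on a linear axis, points for the 12 libraries and lines for the mean of each group (n = 3). Cxcl1, Cxcl12, Cxcl14, Cxcl16 and Cx3cl1 are highest in basal cells, while Cxcl15 and Cxcl17 are highest in the 3 old luminal libraries.

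The age responses of the cell types were compared by an interaction term, where 0.817% of all tested genes were called (0.423% higher, 0.394% lower). Cxcl17 was called (log2 -5.72 ± 1.06 SE, edgeR adjusted p = 0.0312), a value set by the absence of reads in young basal cells. On fragment counts it was -0.92 (edgeR adjusted p = 0.81), and by limma on log2(TPM + 1) 0.10 (adjusted p = 0.96). Without young basal replicate 1 or 3, old basal replicate 2 or 3, young luminal replicate 2 or 3, or old luminal replicate 1 or 2, the call was lost, with edgeR adjusted p of 0.0545 to 0.0698. The luminal response of Cxcl15 was 4.5 times the basal one (SE of 0.97 on the log2 scale, edgeR adjusted p = 0.39; a log2 difference of 0.94 without young basal replicate 1), and that of Cx3cl1 1.72 times (SE 0.31, edgeR adjusted p = 0.317), neither past the test. Cxcl1, Cxcl2, Cxcl12, Cxcl14 and Cxcl16 differed by -0.90 to 0.71 on the log2 scale, with edgeR adjusted p of 0.589 to 1, and Cxcl5, with no basal read, gives no usable value. These comparisons share libraries, so their values are set side by side and not correlated.

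The genes whose pattern over the 12 libraries came nearest were found by the root mean square difference of centred log2 CPM, among 9872 genes with at least 5 CPM on average. Nearest to Cxcl16 were Socs5 (0.18), Ppp1r2 (0.20) and Rab35 (0.22), and nearest to Cx3cl1 were Pkn2 (0.21), Tmem51 (0.24) and Plcd3 (0.25). Cxcl1 was nearest to Ppp4r1 (0.33), Isy1 (0.35) and Mpzl2 (0.36). Cxcl12 was nearest to Dennd2c (0.46), Hr and Ptprd (0.52 each). For Cxcl15 they were Abcc4 (0.48), Scnn1a and Bend7 (0.67 each), and for Cxcl14 they were Flnc (0.62), Igfbp5 (0.65) and Ncam1 (0.71). Cxcl2 had no close partner, with Syt12 at 0.84, Zmynd19 at 0.86 and Chml at 0.96. Among the chemokines themselves Cxcl16 and Cx3cl1 were nearest to each other (0.39), although Cx3cl1 ranked 659 among the genes nearest to Cxcl16, and Cxcl16 ranked 473 among those nearest to Cx3cl1.

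Of 23 chemokine receptor genes, 11 had no read in any library, among them Cxcr6, the receptor of Cxcl16, and Ccr6, the receptor of Ccl20. Cxcr2 was present in all 12 libraries, with means of 9.36 and 11.1 CPM in basal cells at 3 and 24 months and 7.59 and 6.96 CPM in luminal cells. Neutrophils carry Cxcr2. Of their other markers S100a8, S100a9, Mpo and Retnlg were at 0 in all libraries, Elane had reads in 1 library and Csf3r in 7, at 1.85 CPM or less. Ackr3, which removes Cxcl12, was lower in luminal cells like its ligand, at 43.9 against 5.23 CPM at 3 months (log2 -3.07, edgeR adjusted p = 1e-05) and 49.2 against 4.49 CPM at 24 months (log2 -3.45, edgeR adjusted p = 4e-06). Ackr4, a scavenger of other chemokines, was called lower at 3 months (29.7 against 6.5 CPM, log2 -2.19, edgeR adjusted p = 0.0118) and not at 24 months (-1.47, 0.0769). Cxcr4 reached 2.4 CPM and Cx3cr1 1.25 CPM at most. Of the 8 receptors tested none was called with age in either cell type by edgeR, none had an unadjusted p under 0.05, and DESeq2 called none.

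NF-kB factors and their feedback genes, which act on Cxcl1 and Cxcl2 in many cell types, were mostly basal. Of 20 genes 12 were lower and 1 higher in luminal cells at 3 months, and 11 were lower and 2 higher at 24 months, with medians of -0.98 and -0.59 on the log2 scale. Over all tested genes 18.6% were called lower and 19% higher at 3 months, and 19.7% and 15.7% at 24 months. Icam1, an adhesion receptor for leukocytes, was at 643 against 41.2 CPM at 3 months (log2 -3.96, edgeR adjusted p = 1.94e-11), Nfkb1 at 934 against 83.7 CPM (-3.48, 4.01e-09) and the inhibitor Nfkbia at 602 against 173 CPM (-1.79, 1.35e-08). Nfkb2 was also lower (log2 -1.87, edgeR adjusted p = 7.97e-07). With age 1 of the 20 was called in luminal cells, against 1.65% of all tested genes: Icam1 rose from 41.2 to 72.5 CPM (log2 0.81 ± 0.11 SE, edgeR adjusted p = 0.00148). There 9 had an unadjusted p under 0.05, and DESeq2 called 4, Icam1, Nfkb2, Nfkbia and Rela. Basal markers, which like Icam1 are abundant in basal cells, summed to 648 to 751 CPM in young and 870 to 1360 CPM in old luminal libraries. Of these 10 genes 2 were called higher with age in luminal cells, Krt15 (136.5 to 432.9 CPM, log2 1.66, edgeR adjusted p = 0.00128) and Col17a1 (1.60, 0.00208), while Krt5 was at 7.79 and 9.59 CPM, and their part was not tested. In basal cells edgeR called none, 3 had an unadjusted p under 0.05, and DESeq2 called 1, Nfkbia.

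Genes that process chemokines were compared next. Of 8 tested, luminal cells had 3 called higher and 4 called lower at each age. Over all tested genes 19% were called higher and 18.6% lower in young luminal than in young basal cells. In the old groups these shares were 15.7% and 19.7%. Adam10, a sheddase of Cxcl16 and Cx3cl1, was higher in luminal cells (56.1 against 109 CPM at 3 months, log2 0.95, edgeR adjusted p = 0.000384), as was Dpp4, which trims Cxcl12 (0.837 against 47.5 CPM). The Adam17 partners Rhbdf1 (log2 -2.15, edgeR adjusted p = 1.88e-07) and Rhbdf2 (-1.46, 9.23e-06) and the inhibitor Timp3 (-2.94, 7.96e-10) were lower, and Mmp7 was higher (6.19, 2.57e-05). Adam17 itself was at 16.5 to 20.1 CPM on average in the 4 groups and was not called. With age edgeR called none of the 8. In basal cells 1 had an unadjusted p under 0.05 and DESeq2 called 1, Adam10, and in luminal cells 2 had such a p and DESeq2 called 2, Rhbdf1 and Timp3.

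Of 28 other chemokines listed, 11 had no read and 17 were under 1 CPM in every group. Cxcl10, an interferon-induced ligand of Cxcr3, was the most abundant of these, at 137 ± 27.5 CPM in young basal and 85.4 ± 32.5 CPM in old basal cells, against 16.9 ± 2.65 and 7.82 ± 5.56 CPM in luminal cells. It was lower in luminal cells at 3 months (log2 -3.02, edgeR adjusted p = 3.5e-05) and 24 months (-3.45, 1.4e-05). Cxcl9 was called lower (3.94 against 0.0971 CPM) and Ccl9 higher (0 against 3.17 CPM) in old luminal cells. Old luminal libraries ranged from 0 to 5.24 CPM for Ccl9, which overlaps the old basal libraries. With age none of the 11 tested was called by edgeR or DESeq2 in either cell type, with 0 in basal and 3 in luminal cells at an unadjusted p under 0.05.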

How the data were processed

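Messenger RNA of sorted prostate cells was sequenced after mRNA enrichment and PCR, with a stranded kit, per the labels' protocols. Reads were processed with bcl2fastq 2.17, Bowtie2 2.1.0 and RSEM 1.2.15 on mm10, per the submitters' processing notes; no strand setting is given in the sources used here. The deposited tables hold RSEM expected counts, TPM and FPKM per gene, per the file headers; the authors' FPKM values were not used. Expected counts were rounded, genes kept with filterByExpr (minimum count 10, minimum total 15; 14201 genes), scaled by TMM and fitted in 1 edgeR 4.0.16 quasi-likelihood model over all 12 libraries, with Benjamini-Hochberg adjustment over all genes tested per comparison. The common coefficient of variation, which edgeR names biological, was 0.797 on reads and 0.117 on fragment counts. Fold changes of genes at 0 in a group are bounds at 3 fragments per group. Reads without molecular identifiers include PCR copies, so floors cover counting error only. Fragment counts divide a library's reads by the median count over its sporadic genes (8 or more reads there, absent from the rest of its group, present in no more than 3 libraries elsewhere, longer than 500 bases), with minimum count 3 and minimum total 10 (11209 genes). Alternatives were DESeq2 1.42.0 and its size factors, no filter, limma 3.58.1 on log2(TPM + 1), the compared groups alone, a replicate block, each library left out, and fragment counts. The fit was tested on simulated data. The 10 genes, the lists and the alternatives were chosen with earlier results of these data known. The text names the 10 genes, the 3 nearest patterns of each gene seen in every library, and up to 4 called members of each pathway list by smallest p; others were named after their values were seen. The list of proximal luminal genes was added after the data were seen. A further gene of that list is not reported here. The series text calls the libraries biological triplicates. The p-values measure the spread between libraries, which mixes differences between pools with the sampling and PCR copying of fragments. Protein sequences were not used here.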

Additional observations from a re-analysis of the deposited data

Results flagged for a closer look

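The age response of Cxcl17 differed between the cell types by the interaction test (log2 -5.72, luminal minus basal, edgeR adjusted p = 0.0312). Over the alternatives the adjusted p ranged from 0.00325 (DESeq2) to 0.96 (limma on log2(TPM + 1), where the difference was 0.10). Young basal libraries held no Cxcl17 read, so the basal side of this value depends on the prior count.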

How the results depend on the processing

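Of 16 called results of the 10 genes, 10 kept direction and call under every alternative run and 6 lost the call under at least 1. Of 27 uncalled results, 5 gained a call and 10 changed sign under some alternative. The number of genes called with age in basal cells (1) was 0 with the compared groups alone and 2 on fragment counts. In luminal cells (1) it was 3 with DESeq2 and on fragment counts, and 2 with no filter or the compared groups alone. For the interaction (1) it was 0 by limma on TPM and on fragment counts. Leaving out 1 library gave 1 to 1, 0 to 2 and 0 to 1 for these, 5 to 6 for luminal against basal cells at 3 months (6) and 5 to 7 at 24 months (7).

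With a replicate block the luminal age count was 2, adding Cxcl14 (edgeR adjusted p = 0.0255), and Cxcl15 in basal cells had a log2 change of 0.35. Replicate numbers were not taken as pairing: deviations of 18 same-numbered pairs correlated at -0.0967 to 0.159. The 2 above 0.1 joined old basal with old luminal libraries (replicates 2 and 3; 0.0549 for replicate 1), so a link within the old groups cannot be dismissed.

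These results changed sign. The Cxcl2 interaction (-0.09) was 0.015 with DESeq2 size factors, 0.013 with DESeq2 and 0.71 on TPM, the Cxcl15 basal age change (-0.02) was 0.18 on TPM and 0.067 on fragment counts, and the Cxcl17 interaction, called at -5.72, was 0.10 on TPM. Leaving out 1 library, basal age changes ranged from -0.51 to 1.21 (Cxcl15), -0.33 to 0.0036 (Cxcl16) and -0.38 to 0.070 (Cx3cl1), and luminal ones from -0.21 to 0.68 (Cxcl1) and -0.92 to 0.61 (Cxcl12). Interactions ranged from -0.67 to 0.21 (Cxcl1) and -0.70 to 0.87 (Cxcl2), and luminal against basal differences from -1.02 to 0.42 (Cxcl2, 3 months), -0.22 to 1.51 (Cxcl15, 3 months) and -0.84 to 0.17 (Cxcl2, 24 months). The cause was not tested. DESeq2 size factors moved the median of all genes from -0.13 to -0.02 for the interaction and from 0.00 to 0.13 for luminal against basal cells at 24 months. Depth limits Cxcl5, Ccl20 and basal Cxcl17, each at 2.16 fragments or fewer per library. Few fragments also stood behind other values, among them young basal Cxcl15 (0.568 to 4.24 per library), luminal Cxcl12 (0.783 to 3.97) and old luminal Cxcl14 (0.659 to 4.86).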

Other observations

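Cytokines and their receptors, which act upstream of chemokine genes, were measured for 21 of 23 listed genes. Lif, a cytokine of the interleukin 6 family, was basal (367 against 5.66 CPM at 3 months, log2 -6.03, edgeR adjusted p = 3.35e-09) and rose with age in luminal cells to 24.3 CPM (log2 2.11 ± 0.29 SE, edgeR adjusted p = 0.00148). In the same luminal comparison the basal markers Krt15 (log2 1.66) and Col17a1 (1.60) also rose, and summed basal markers were at 648 to 751 CPM in young and 870 to 1360 CPM in old libraries, with their part in the Lif change not tested. The tumor necrosis factor receptors Tnfrsf1b (13.1 to 45.8 CPM, log2 1.80, edgeR adjusted p = 0.000719) and Tnfrsf1a (128 to 185 CPM, 0.53, 0.0328) rose in luminal cells too. Both receptors were lower in luminal than in basal cells at 3 months (log2 -1.68 and -1.34, edgeR adjusted p = 1.72e-05 and 3.85e-07). The part of the basal markers in their rise was not tested either. Lif and both receptors were the 3 of 21 called with age in luminal cells, against 1.65% of all tested genes. In basal cells edgeR called none, 4 had an unadjusted p under 0.05, and DESeq2 called 2, Ifngr2 and Myd88. Il33, an alarmin, was lower in luminal cells at both ages (30.3 against 1.81 CPM at 3 months, log2 -4.06, edgeR adjusted p = 8.22e-05), as were Il17ra (58.8 against 15.9 CPM, -1.89, 2.34e-05) and Il6 (8.66 against 1.95 CPM, -2.15, 0.0174), while Il1r1 was higher (14.2 against 55.3 CPM, 1.96, 0.000376).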
